A study of Mus musculus with 6 samples.

Results

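The immediate early response genes Fos, Fosb, Jun, Junb, Egr1, Nr4a1, Myc, Ier2, Ier3 and Dusp1 were followed in mouse liver with and without the PiZ transgene. These 10 of the 12393 genes with a probe set of their own were read by 11 of the 22626 probe sets tested, namely each probe set whose platform annotation names exactly 1 of the 10 genes. Jun was read by 2 probe sets and every other member by 1. The study compared 3 wild-type livers with 3 livers of PiZ mice, which express from a human transgene the Z mutant of alpha-1 antitrypsin, a secreted protease inhibitor that misfolds and collects in the endoplasmic reticulum of hepatocytes. All mice were 6 weeks old and of strain C57BL/6, each array held the RNA of 1 biological replicate, and the labels name no treatment. The sources used here give neither the promoter that drives the transgene nor the sex of the mice. Values are log2 intensities of a one-colour Affymetrix array, and differences are PiZ minus wild-type on that log2 scale.

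Immediate early genes are switched on within minutes of a growth factor, cytokine, hormone or stress signal, because the factors that start their transcription are already present in the resting cell. Their transcripts are short-lived, and many of their proteins are transcription factors that carry the signal on to later genes. Fos and Jun family proteins pair to form AP-1, and in the liver this class of genes is best known for its response to partial hepatectomy, injury and inflammation. Some of the products, such as Dusp1, act as brakes on the kinases that induced them.

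The stretches of 250 bases upstream of the annotated gene start are printed for the members called higher in PiZ liver (Nr4a1, Fosb and Ier3) and for 2 that did not pass the test (Fos and Dusp1). They are the RefSeq promoters of build GRCm38.p6, printed 5′ to 3′ on the strand of the gene, with capitals marking each match to 1 of 6 motifs searched on both strands. The motifs were TGACGTCA, the cAMP response element; TGANTCA, the AP-1 element; TGCGTCA, an AP-1-like variant of the cAMP response element; TATAAA, the TATA element; GCGNGGGCG, the element bound by EGR proteins; and the CArG box, the element bound by serum response factor. The Nr4a1 stretch lies at chr15:101266596-101266845 on the plus strand, that of Fosb at chr7:19310046-19310295 on the minus strand, that of Ier3 at chr17:35821463-35821712 on the plus strand, that of Fos at chr12:85473640-85473889 on the plus strand and that of Dusp1 at chr17:26508473-26508722 on the minus strand.
Nr4a1: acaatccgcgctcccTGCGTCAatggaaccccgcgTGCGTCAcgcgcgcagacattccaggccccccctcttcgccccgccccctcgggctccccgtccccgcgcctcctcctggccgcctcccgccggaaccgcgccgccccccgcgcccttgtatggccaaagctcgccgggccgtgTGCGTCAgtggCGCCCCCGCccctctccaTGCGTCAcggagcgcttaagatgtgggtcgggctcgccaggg
Fosb: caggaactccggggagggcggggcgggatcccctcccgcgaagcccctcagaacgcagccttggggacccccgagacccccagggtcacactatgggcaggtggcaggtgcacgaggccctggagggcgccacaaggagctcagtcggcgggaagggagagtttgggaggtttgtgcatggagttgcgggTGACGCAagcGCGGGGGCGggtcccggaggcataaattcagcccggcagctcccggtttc
Ier3: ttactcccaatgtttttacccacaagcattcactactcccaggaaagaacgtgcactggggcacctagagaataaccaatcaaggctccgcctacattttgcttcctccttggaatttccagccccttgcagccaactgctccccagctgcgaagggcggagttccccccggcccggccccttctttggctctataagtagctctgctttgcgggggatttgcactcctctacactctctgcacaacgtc
Fos: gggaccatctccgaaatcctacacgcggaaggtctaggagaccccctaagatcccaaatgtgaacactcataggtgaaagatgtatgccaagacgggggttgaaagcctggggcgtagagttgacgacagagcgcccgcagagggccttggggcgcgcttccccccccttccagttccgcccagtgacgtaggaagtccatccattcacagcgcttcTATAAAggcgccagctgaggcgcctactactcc
Dusp1: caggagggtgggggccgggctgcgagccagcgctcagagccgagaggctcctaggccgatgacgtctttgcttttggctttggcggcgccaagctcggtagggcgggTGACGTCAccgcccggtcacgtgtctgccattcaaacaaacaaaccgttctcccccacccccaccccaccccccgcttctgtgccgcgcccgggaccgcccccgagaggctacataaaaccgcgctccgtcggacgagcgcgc
Counted from the gene start, Nr4a1 had TGCGTCA at -235 to -229, -215 to -209, -71 to -65 and -42 to -36, and GCGNGGGCG on the opposite strand at -60 to -52. Among 32851 promoters of the same length, 1.75% held TGCGTCA at least once and 1 held it 3 or more times, that of Nr4a1 itself. Fosb had TGCGTCA once, on the opposite strand at -60 to -54, and GCGNGGGCG at -50 to -42, a motif in 4.7% of all promoters. Fos had TATAAA at -33 to -28 (12.4% of all promoters) and Dusp1 had TGACGTCA at -143 to -136 (1.55%). Ier3 held no match to any of the 6 motifs in this window, and neither did Jun and Junb, the other 2 of the 7 members with a promoter in the table. TGANTCA (6.75% of all promoters) and the CArG box (1.47%) had no exact match within these 250 bases in any of the 7. Sites farther upstream, sites that differ from a motif by a base, and the promoters of Egr1, Ier2 and Myc were not searched. No 2 matches overlapped in these promoters, and a match describes letters and says nothing of binding. Whether matches go with the calls was not tested.

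**Figure D1:**
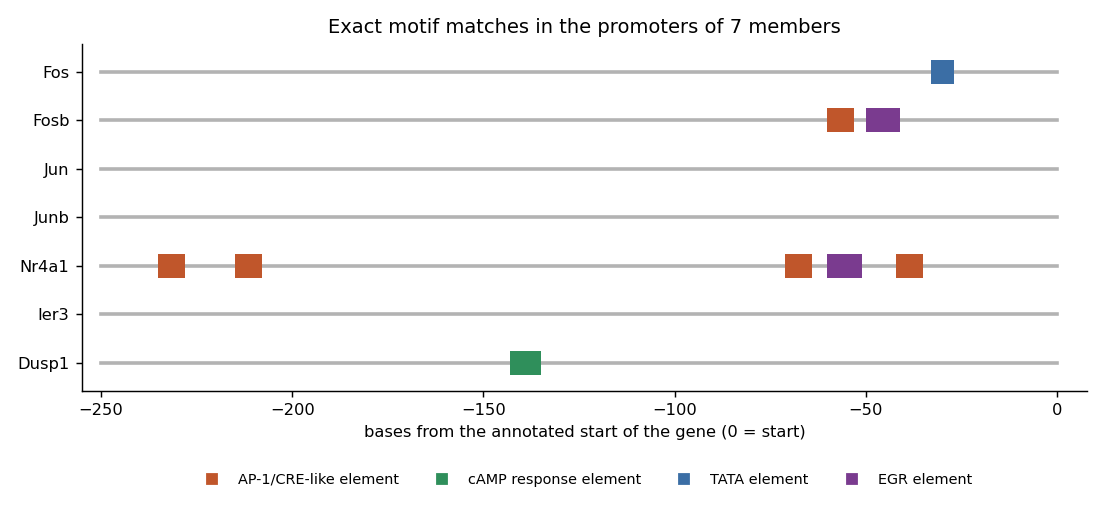
Positions of exact motif matches (coloured boxes) in the 250 bases upstream of the annotated start of 7 members, in bases from the start. Nr4a1 has 4 matches to the AP-1-like variant of the cAMP response element, Fosb has 1, and the lines of Jun, Junb and Ier3 hold none.

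The arrays were alike in overall level, but PiZ replicate 1 stood apart from PiZ replicates 2 and 3 in RNA quality. Array medians lay between 6.12 and 6.18. The difference between the 3′ and the 5′ probe sets of the control transcript Gapdh, which is larger in shortened RNA, spanned 1.49 to 2.06 over the wild-type arrays and stood at 1.99 on the array of PiZ replicate 1, at 4.39 on that of replicate 2 and at 4.01 on that of replicate 3. The same difference of beta-actin spanned 2.90 to 3.34, and then stood at 3.02, 4.89 and 4.66. PiZ replicate 1 was thus the PiZ array whose RNA quality lay near that of wild-type, and among the other arrays genotype and RNA quality cannot be told apart. Results on the members are therefore given for PiZ replicate 1 alone against the wild-type arrays, or adjusted for RNA quality with the mean of these differences as a covariate, beside values without PiZ replicate 1. With 1 PiZ array, the test assumes that it varies as the wild-type arrays do. The adjusted values rest largely on the same PiZ array, because only PiZ replicates 2 and 3 had large 3′ to 5′ differences. The 2 kinds of value are therefore not separate checks. Of the tissue named in the labels, the hepatocyte markers Alb, Apoa1, Ttr, Serpinc1, Fgb and Cps1 were near the top of the array's scale, with a mean level of 14.48 to 14.49 in wild-type and 14.03 to 14.35 in PiZ arrays. The livers were measured whole, so fewer cells of a type and less RNA per cell cannot be told apart.

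In PiZ liver 3 of the 10 genes were called higher, and none was called lower. Of these 3, Nr4a1, an orphan nuclear receptor, rose most (1.86), followed by Ier3, a stress-induced regulator of cell survival (1.05), and Fosb, an AP-1 subunit (0.68). Jun, Egr1 and Fos had positive differences of 0.71 to 1.26 that did not pass the test. For each of them the wild-type livers spanned more than the difference between the genotypes. Dusp1 (-0.77) and Myc (-0.46) had negative differences that did not pass, with 95% intervals reaching down to -1.77 and -1.93. In limma's test over all probe sets, with Benjamini-Hochberg adjusted p below 0.05 as the threshold, 3 of the 11 member probe sets were higher and 0 lower, and 0 were lower at an unadjusted p below 0.05 either. Of all probe sets tested, 8.93% were called higher and 10.2% lower. The same 3 probe sets had all PiZ arrays above all wild-type arrays, as had 23.4% of all probe sets. None had all PiZ arrays below, as had 18.6%. With any 1 of the wild-type arrays left out, Nr4a1 alone among the members remained called.

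**Figure D2:**
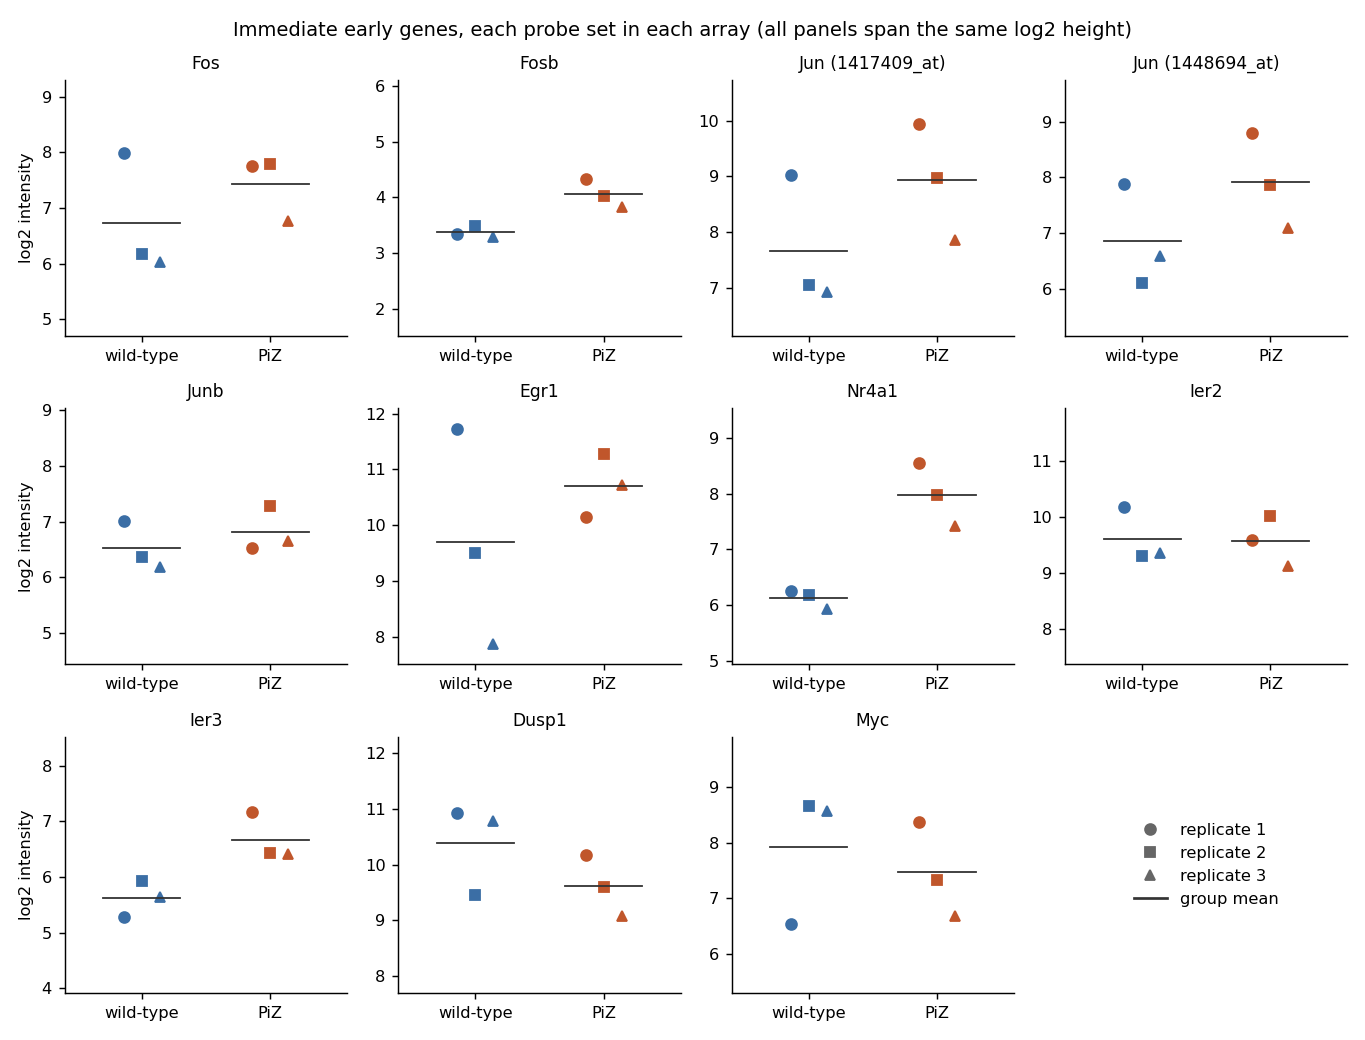
Log2 intensity of each member probe set in the 3 wild-type (blue) and 3 PiZ (orange) arrays, with symbols for the replicate number and a line at each group mean. All panels span the same height, so the wide wild-type spread of Egr1 (7.87 to 11.73) can be set beside the narrow one of Nr4a1 (5.92 to 6.26).

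Among the AP-1 subunits, Fosb was the 1 of 4 genes that passed. Fosb, a Fos family protein that has to pair with a Jun protein to bind DNA, read 3.34, 3.49 and 3.29 in wild-type replicates 1 to 3 and 4.33, 4.02 and 3.82 in PiZ replicates 1 to 3. The groups did not overlap, but every value lay under the lower quartile of its array (4.27 to 4.46 over the 6 arrays), so Fosb was dim in both genotypes. The difference was 0.68 (SE 0.15, 95% interval 0.33 to 1.04, limma adjusted p = 0.0224), a 1.61-fold rise. With PiZ replicate 1 alone against wild-type it was 0.96 (adjusted p = 0.00715), adjusted for RNA quality 0.92 (adjusted p = 0.0148) and without PiZ replicate 1 0.55 (adjusted p = 0.00662). The call was lost after cyclic loess (adjusted p = 0.06), after a further quantile normalization (adjusted p = 0.0565), and without wild-type replicate 1 (0.0926), 2 (0.0618) or 3 (0.098) or PiZ replicate 2 (0.0572).

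Fos, the founding partner of Jun in AP-1, read 7.98, 6.18 and 6.03 in wild-type and 7.75, 7.79 and 6.76 in PiZ liver. Wild-type replicate 1 was the highest of all 6 arrays, while the other 2 wild-type livers lay below every PiZ liver. The difference of 0.71 (SE 0.53, 95% interval -0.53 to 1.95) did not pass (limma adjusted p = 0.36). Without wild-type replicate 1 it was 1.33 (SE 0.32, adjusted p = 0.0664), and without wild-type replicate 3 it was 0.36 (adjusted p = 0.711). Adjusted for RNA quality it was 1.12 (adjusted p = 0.384), with PiZ replicate 1 alone 1.02, and without PiZ replicate 1 0.55 (adjusted p = 0.451).

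Jun, the AP-1 subunit activated by the JNK kinases, had the largest difference after Nr4a1 and was read alike by its 2 probe sets. Probe set 1417409_at read 9.02, 7.05 and 6.93 in wild-type and 9.94, 8.97 and 7.86 in PiZ liver. Probe set 1448694_at read 7.89, 6.11 and 6.59 in wild-type and 8.80, 7.87 and 7.09 in PiZ liver. In both, wild-type replicate 1 stood inside the range of the PiZ livers and the other wild-type livers lay below it. The differences were 1.26 (SE 0.67, 95% interval -0.30 to 2.82, limma adjusted p = 0.21) and 1.06 (SE 0.54, 95% interval -0.20 to 2.32, adjusted p = 0.195). Without wild-type replicate 1 they were 1.94 (adjusted p = 0.0913) and 1.57 (adjusted p = 0.104). Without wild-type replicate 2 they were 0.95 (adjusted p = 0.432) and 0.68 (adjusted p = 0.445). Without wild-type replicate 3 they were 0.89 (adjusted p = 0.469) and 0.92 (adjusted p = 0.395). Without PiZ replicate 1 they were 0.75 (adjusted p = 0.339) and 0.62 (adjusted p = 0.314). Adjusted for RNA quality they were 2.39 (adjusted p = 0.0921) and 2.09 (adjusted p = 0.0562), and with PiZ replicate 1 alone 2.27 (adjusted p = 0.0978) and 1.94 (adjusted p = 0.0791). Centring the arrays on reference genes brought both past the threshold (1.40, adjusted p = 0.0231, and 1.20, adjusted p = 0.0228). Array weights lowered them to 0.62 (adjusted p = 0.428) and 0.55 (adjusted p = 0.38).

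Junb, a Jun family protein that restrains Jun in many settings, read 7.01, 6.37 and 6.19 in wild-type and 6.52, 7.28 and 6.66 in PiZ liver. The groups overlapped, with wild-type replicate 1 above 2 of the PiZ livers. Its difference was 0.30 (SE 0.27, 95% interval -0.33 to 0.92, limma adjusted p = 0.444). It was 0.54 without wild-type replicate 1, 0.13 without wild-type replicate 3, 0.07 without PiZ replicate 2 and 0.0033 adjusted for RNA quality, with limma adjusted p from 0.225 to 0.998 over these settings. Without PiZ replicate 1 the Junb difference was 0.45 (adjusted p = 0.2), and with PiZ replicate 1 alone -0.0005.

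Egr1, a zinc finger transcription factor and an early responder to growth factors and injury, was the most variable member. It read 11.73, 9.51 and 7.87 in the wild-type livers and 10.15, 11.27 and 10.71 in the PiZ livers. The 3 PiZ livers lay inside the span of the wild-type livers, whose replicate 1 was the highest of all arrays and replicate 3 the lowest. The difference of 1.01 (SE 0.86, 95% interval -0.996 to 3.01) did not pass (limma adjusted p = 0.418). Leaving out wild-type replicate 1 raised it to 2.02 (SE 0.52, adjusted p = 0.0771) and leaving out wild-type replicate 3 lowered it to 0.09 (SE 0.65, adjusted p = 0.938). Adjusted for RNA quality it was 0.54 (adjusted p = 0.831), with PiZ replicate 1 alone 0.45, and without PiZ replicate 1 1.29 (adjusted p = 0.278).

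Nr4a1, also called Nur77, a nuclear receptor without a known classical ligand and a regulator of glucose and lipid genes in liver, rose in every PiZ liver. It read 6.26, 6.18 and 5.92 in wild-type and 8.55, 7.97 and 7.42 in PiZ liver. All 3 PiZ livers lay more than 1 log2 unit above the highest wild-type liver, and PiZ replicate 1 was the highest. The difference was 1.86 (SE 0.27, 95% interval 1.23 to 2.48, limma adjusted p = 0.00577), a 3.63-fold rise. It was 2.43 with PiZ replicate 1 alone (adjusted p = 0.000788), 2.38 adjusted for RNA quality (adjusted p = 0.0035) and 1.58 without PiZ replicate 1 (adjusted p = 0.000388). Over 17 alternative settings it lay between 1.50 and 2.43 with adjusted p between 6.24e-06 and 0.0355. Its promoter, printed above, is the one with 4 copies of TGCGTCA, and any link between these copies and the rise was not tested.

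Myc, a transcription factor that drives ribosome synthesis and growth, was the member for which wild-type replicate 1 stood lowest against the other wild-type livers. It read 6.54, 8.67 and 8.57 in wild-type and 8.37, 7.34 and 6.69 in PiZ liver. Wild-type replicate 1 was the lowest of all 6 arrays, and the other wild-type livers were the highest. The difference of -0.46 (SE 0.63, 95% interval -1.93 to 1.01) did not pass (limma adjusted p = 0.619). Without wild-type replicate 1 it was -1.15 (adjusted p = 0.173), and adjusted for RNA quality it was 0.18 (adjusted p = 0.922). With PiZ replicate 1 alone the Myc difference was 0.45, and without PiZ replicate 1 it was -0.91 (adjusted p = 0.235).

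Ier3, also called IEX-1, a short-lived protein that modulates survival signalling, rose. It read 5.28, 5.92 and 5.65 in wild-type and 7.16, 6.43 and 6.42 in PiZ liver. The groups did not overlap, and PiZ replicate 1 stood above the other PiZ livers. The difference was 1.05 (SE 0.25, 95% interval 0.48 to 1.62, limma adjusted p = 0.0263), a 2.07-fold rise, and it was 0.80 (adjusted p = 0.00784) without PiZ replicate 1. Adjusted for RNA quality it was 1.47 (adjusted p = 0.0164), and with PiZ replicate 1 alone 1.54 (adjusted p = 0.00991). The call was lost without wild-type replicate 1 (0.88, adjusted p = 0.101), 2 (1.20, adjusted p = 0.0511) or 3 (1.07, adjusted p = 0.093) and without PiZ replicate 3 (1.17, adjusted p = 0.0565).

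Ier2, a nuclear protein induced with Fos, showed the smallest difference of the members. It read 10.18, 9.30 and 9.36 in wild-type and 9.59, 10.02 and 9.13 in PiZ liver, so that the highest and the next highest value came from different genotypes. The difference was -0.04 (SE 0.30, 95% interval -0.73 to 0.66, limma adjusted p = 0.94). Its sign turned with the scaling, to 0.09 after cyclic loess, 0.08 after a further quantile normalization and 0.10 when centred on reference genes. With PiZ replicate 1 alone the Ier2 difference was -0.03. Adjusted for RNA quality it was -0.0047 (adjusted p = 0.997), and without PiZ replicate 1 -0.04 (adjusted p = 0.927).

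Dusp1, the phosphatase that switches off p38, JNK and ERK kinases, had the most negative difference. It read 10.92, 9.46 and 10.79 in wild-type and 10.18, 9.59 and 9.08 in PiZ liver. Wild-type replicates 1 and 3 were the highest of all, but wild-type replicate 2 fell among the PiZ livers. The difference of -0.77 (SE 0.42, 95% interval -1.77 to 0.22) did not pass (limma adjusted p = 0.223). It was -1.24 (adjusted p = 0.0654) without wild-type replicate 2, -1.06 (adjusted p = 0.0654) without PiZ replicate 1, -0.03 (adjusted p = 0.98) adjusted for RNA quality and -0.21 (adjusted p = 0.832) with PiZ replicate 1 alone.

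**Figure D3:**
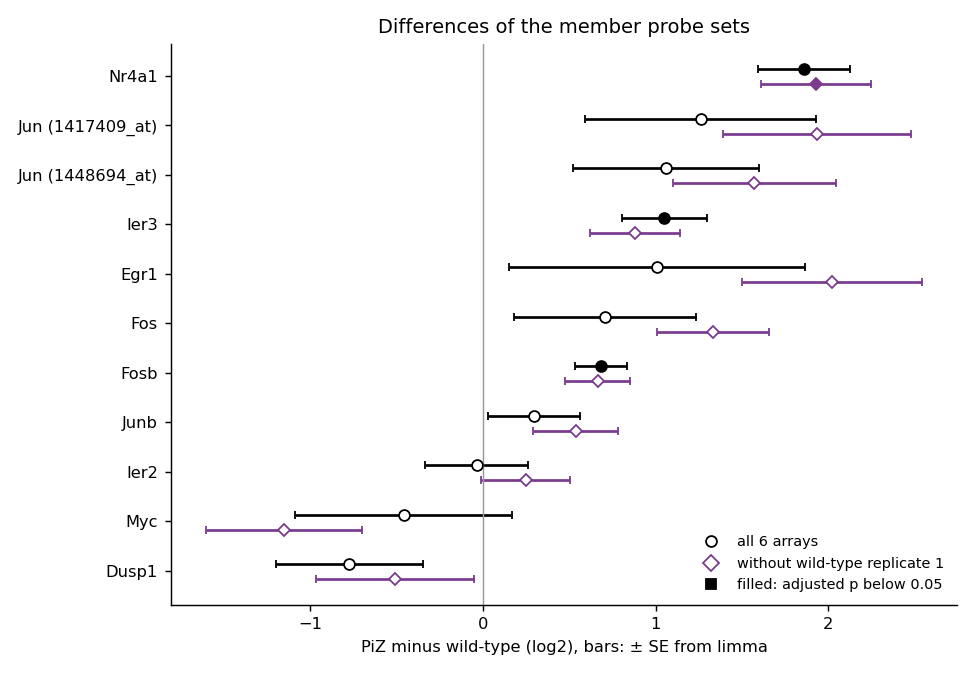
PiZ minus wild-type difference of each member probe set on the log2 scale, with bars of 1 SE from limma, over all 6 arrays (circles) and without wild-type replicate 1 (diamonds); filled symbols have adjusted p below 0.05. Without that array Egr1 moves from 1.01 to 2.02 and Myc from -0.46 to -1.15, and Nr4a1 is the one filled diamond.

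Most of the member probe sets varied more between wild-type livers than nearly all other probe sets did. Over the 3 wild-type livers Egr1 spanned 3.86 log2 units, the widest range of all 22626 probe sets. Myc (2.13) ranked 17, the Jun probe sets (2.09 and 1.78) 19 and 30, Fos (1.95) 26 and Dusp1 (1.46) 62. In all, 7 of the 11 member probe sets were in the top 1% by wild-type range, which began at 0.86, while the median range was 0.20. The 3 genes called higher had the smaller ranges Ier3 0.65, Nr4a1 0.34 and Fosb 0.20. Over the PiZ livers the range of all probe sets was wider (median 0.40, top 1% from 1.73), and 1 of 11 member probe sets, Jun 1417409_at at 2.08, was in the top 1%.

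Much of the wild-type spread lay between replicate 1 and the other 2 livers, and it ran in both directions. Wild-type replicate 1 was above the mean of replicates 2 and 3 by 3.04 for Egr1, 2.03 and 1.54 for Jun, 1.87 for Fos, 0.85 for Ier2, 0.79 for Dusp1 and 0.72 for Junb, and it was below by the signed differences -2.08 for Myc and -0.51 for Ier3. By gene, with the brightest probe set, 6 of 10 members stood at least 0.5 above and 2 at least 0.5 below. Of all 12393 genes with a probe set of their own, 0.904% stood that far above and 1.12% that far below. Egr1 and Dusp1 also differed between wild-type replicates 2 and 3, by 1.64 and -1.33, gaps that ranked 8 and 21 in size among all probe sets.

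Wild-type replicate 1 did not stand out in RNA quality (Gapdh 3′ to 5′ difference 1.49, the lowest of the 6) or over the genes at large, where it was the highest wild-type array for 33.4% of probe sets. It was the highest for 8 of the 11 member probe sets. Among the 20 widest wild-type ranges, genes outside the members also had it far from the mean of wild-type replicates 2 and 3. Against that mean it stood at 2.32 for Nr0b2, 2.18 for Igfbp1, -2.30 for Mt2 and -1.69 for Per3. With wild-type replicate 1 left out, 1 member probe set, Nr4a1, was called higher and 0 lower. In that smaller fit 2.69% of all probe sets were called higher and 2.9% lower. Without PiZ replicate 1 the members called higher were Nr4a1, Ier3 and Fosb, with 0 lower. In the fit without that array 25.3% of all probe sets were called higher and 21.3% lower. With PiZ replicate 1 alone against wild-type these 3 members differed by 2.43, 1.54 and 0.96. PiZ replicate 3 was the lowest PiZ array for 9 of the 11 member probe sets, against 24.2% of all probe sets.

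**Figure D4:**
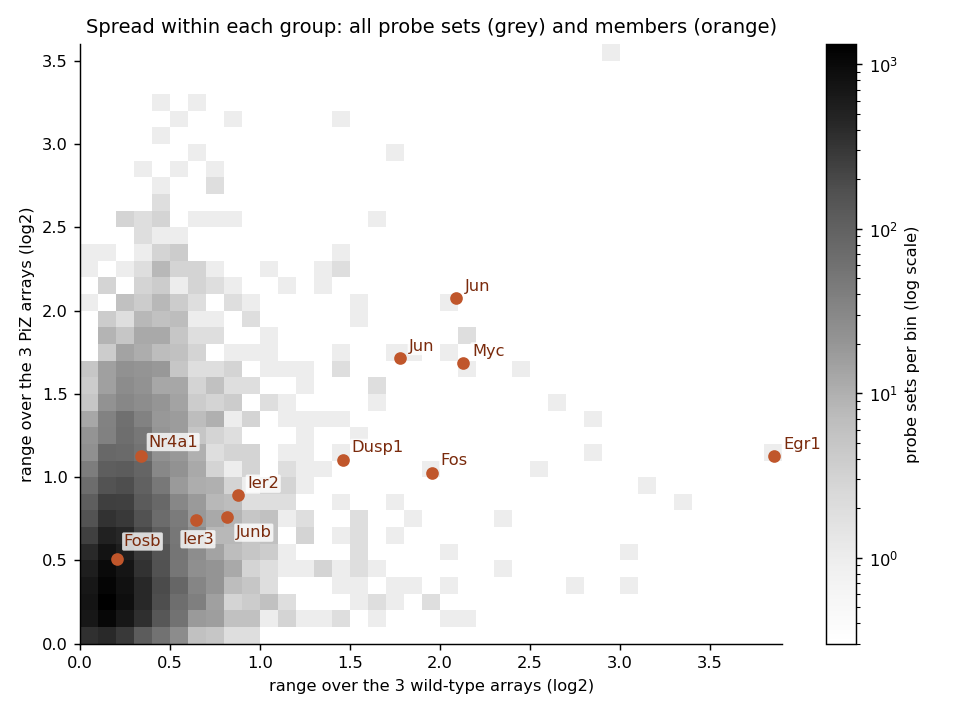
Range of each probe set over the 3 wild-type arrays (horizontal axis) and the 3 PiZ arrays (vertical axis) in log2 units; grey bins count all probe sets on a log scale and orange points are members. Egr1 lies at the far right with a wild-type range of 3.86, and Fosb and Nr4a1 lie among the bulk of genes at 0.20 and 0.34.

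Related genes were followed in 7 lists, each gene by its brightest probe set. Members and lists were chosen with earlier results of these data known, so their counts and medians are descriptions and test nothing. Of 142 genes measured, 30 were higher and 15 lower in PiZ liver. Over all 12393 genes 9.99% were higher and 11.2% lower, with a median difference of 0.08. The members themselves had a median of 0.70.

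Among the partners of the AP-1 members the calls by the brightest probe set were upward. Of 12 partners, 7 were higher and 0 lower (1 lower at an unadjusted p below 0.05), with a median difference of 0.60. Atf2, which pairs with Jun, differed: its brightest probe set read -0.66 (SE 0.22, adjusted p = 0.0705), and 2 of its 4 probe sets were called lower, at -1.24 and -0.93 (adjusted p = 0.0457 and 0.0438). By the brightest probe sets 1 partner was called lower with array weights, with replicate numbers as a block and without PiZ replicate 1. Over all probe sets the calls lower went from 2311 to 4948, 2908 and 4813 in these fits, in that order. Atf3, a stress-induced repressor that pairs with Jun proteins, read 5.26, 5.40 and 5.33 in wild-type and 11.09, 10.92 and 9.83 in PiZ liver, a rise of 5.28 (SE 0.31, limma adjusted p = 2.20e-04). Jund, the Jun family member that is expressed in resting cells, read 9.87, 9.53 and 9.58 in wild-type and 10.78, 11.05 and 10.86 in PiZ liver. It rose by 1.24 (SE 0.14, adjusted p = 0.00245), where Jun and Junb did not pass. Jdp2, which pairs with Jun and represses AP-1 targets, rose by 1.42 by its brightest probe set and read 0.19 by its other one, and Maff, a small Maf protein, rose by 1.41 (SE 0.29, adjusted p = 0.0179). With any 1 wild-type array left out the count of partners called higher was 4, and without PiZ replicate 1 it was 9. Over all probe sets the calls higher went from 2020 to between 598 and 703, and to 5734, in the same fits. None of the 12 partners had wild-type replicate 1 at least 0.5 away from the other wild-type livers.

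Other transcription factors of the primary response were mixed. Of 22 measured, 6 were higher and 1 lower, with a median difference of 0.26. Btg2, an antiproliferative cofactor, rose by 2.19 (SE 0.49, adjusted p = 0.0232), Per1, a clock repressor, by 1.30 (SE 0.31, adjusted p = 0.0272) and Klf6, a zinc finger factor of injury, by 1.15 (SE 0.27, adjusted p = 0.0249). Klf10, a TGF-beta inducible factor, fell by 2.61 (SE 0.25, adjusted p = 0.00165), from 8.88 to 9.90 in wild-type to 6.77 to 7.04 in PiZ liver. Btg2, Per1 and Klf6 lost their calls with any 1 wild-type array or PiZ replicate 2 left out, and Per1 also without PiZ replicate 3 and when adjusted for RNA quality. Wild-type replicate 1 stood at least 0.5 above the other wild-type livers for 4 of the 22 and below for 2.

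Genes of the primary response that encode no transcription factor moved both ways, 4 higher and 4 lower of 29, with a median of 0.18. Gadd45b, a stress sensor upstream of p38 and JNK, rose by 1.85 (SE 0.31, adjusted p = 0.00962), Plk3, a stress kinase, by 1.23 and Rhob, a small GTPase, by 0.98. Phlda1, a pleckstrin homology protein, fell by 2.74 (SE 0.30, adjusted p = 0.00255), F3, the tissue factor that starts coagulation, by 2.33 (SE 0.30, adjusted p = 0.00418), and Socs3, the feedback inhibitor of interleukin 6 signalling, by 2.28 (SE 0.36, adjusted p = 0.00803). All 3 Socs3 probe sets were called lower. Of the 3 Gadd45b probe sets 2 were called higher and the third read 0.09. The call of Plk3 was lost without wild-type replicate 3, PiZ replicate 3 or when adjusted for RNA quality. That of Rhob was lost with any 1 wild-type array or PiZ replicate 2 left out, and that of Gadd45b without wild-type replicate 3. For 4 of the 29, wild-type replicate 1 stood at least 0.5 above the other wild-type livers, and for 5 that far below.

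The feedback inhibitors, to which Dusp1 belongs by function, gave 3 higher and 2 lower of 20 measured, with a median of 0.13. Dusp8, a phosphatase of JNK and p38, rose by 1.26 (SE 0.13, adjusted p = 0.00227), Dusp10, another, by 0.77 (SE 0.18, adjusted p = 0.0253) and Nab1, a corepressor of Egr1, by 0.59 (SE 0.16, adjusted p = 0.0432). Zfp36l2, an RNA-binding protein that hastens decay of AU-rich messages, fell by 1.62 (SE 0.24, adjusted p = 0.00585), and Spred2, an inhibitor of Ras to ERK signalling, fell by 1.03 (SE 0.24, adjusted p = 0.0251). With any 1 wild-type array left out Dusp8 and Zfp36l2 remained called. Other probe sets, none of them called, read 0.44 for Zfp36l2, 0.22 for Spred2, 0.01 for Dusp10 and -0.74 for Nab1. Zfp36, the classical early gene of this family, read 9.98, 8.88 and 8.75 in wild-type and 9.56, 9.27 and 8.77 in PiZ liver. Wild-type replicate 1 was again the highest. For 3 of the 20 that array stood at least 0.5 above the other wild-type livers, and for 1 that far below.

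The upstream receptors, kinases and factors were close to the genes at large, with 2 higher and 3 lower of 25 and a median of 0.10. Srf, which binds the CArG box, read 0.13 (SE 0.11, adjusted p = 0.405). Map2k2, an ERK kinase, rose by 0.68 and Mapkapk2, the kinase downstream of p38, by 0.43, while Erbb3, a receptor of neuregulins, fell by 0.72, Elk4, a partner of Srf, by 0.47 and Nras, a Ras GTPase, by 0.39. Of the 3 Elk4 probe sets another was called higher, at 0.63. Of the 3 Nras probe sets 2 were called lower and the third read 0.24. The other Erbb3 probe set read 0.16 and was not called. None of these 5 remained called with any 1 of the wild-type arrays left out. Egfr, the receptor of epidermal growth factor, read -0.31 (SE 0.29, adjusted p = 0.456) by its brightest probe set, and 3 of its 5 probe sets were called lower.

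Among MYC network partners 1 was higher and 3 lower of 13, and among MYC target genes 7 were higher and 2 lower of 21, with medians of 0.09 and 0.07. Mnt, a repressor that competes with Myc for Max, rose by 0.82 (SE 0.13, adjusted p = 0.00893), and Mycl, a relative of Myc, fell by 1.42 (SE 0.18, adjusted p = 0.00363). Mxi1 and Mga, further partners of Max, fell by 1.34 and 0.55 by their brightest probe sets. Other probe sets, none of them called, read -0.05 for Mxi1, 0.19 for Mga, 0.09 for Mnt and up to 0.20 for Mycl. The partners called lower became 1 without wild-type replicate 1 or 3, and 2 without wild-type replicate 2. Max itself read -0.29 (SE 0.14, adjusted p = 0.186) and Mxd1 read 0.09 (SE 0.11, adjusted p = 0.571), whose sign turned after cyclic loess. Of the targets, Tfrc, the transferrin receptor, rose by 1.44 (SE 0.22, adjusted p = 0.00748). Only 1 of the 3 Tfrc probe sets was called, and the lowest difference among them was 0.13. Ppan, a ribosome assembly factor, rose by 1.09 and Cad, an enzyme of pyrimidine synthesis, by 1.01. Npm1, a nucleolar chaperone, fell by 1.09 and Ldha, lactate dehydrogenase A, by 0.93. Against the wild-type mean, PiZ replicate 1 stood at -0.52 for Npm1 and -0.39 for Ldha. The mean of PiZ replicates 2 and 3 stood at -1.37 and -1.21. Adjusted for RNA quality, 3 targets were called higher and 1 lower. With any 1 wild-type array left out 2 targets were higher and 0 lower. Over all probe sets, calls went from 2020 higher and 2311 lower to 1308 and 1504 when adjusted for RNA quality. With 1 wild-type array left out they went to 598 to 703 higher and 641 to 833 lower. None of the genes of these 2 lists had wild-type replicate 1 at least 0.5 away from the other wild-type livers, unlike Myc.

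**Figure D5:**
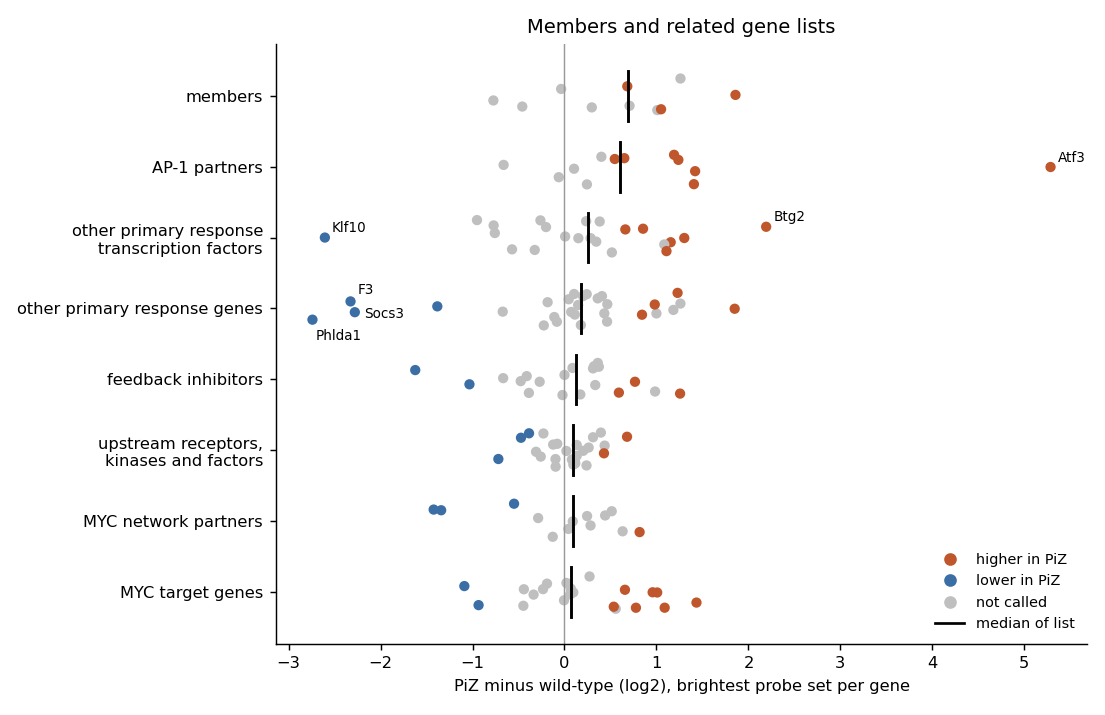
PiZ minus wild-type difference (log2) of the 10 members and of the genes of 7 related lists, 1 point per gene by its brightest probe set; orange and blue points passed the test and black lines are list medians. Of the 8 rows, the members and the AP-1 partners have the highest medians, 0.70 and 0.60, and Atf3 lies alone at 5.28. Members and lists were chosen with earlier results of these data known.

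Markers of other liver cells moved with the genotype in 2 of 7 lists besides hepatocytes, and their part in the results on the members was not tested. Of 7 Kupffer cell and macrophage markers, 3 were higher (Clec4f by 0.64, Cd5l by 0.67 and Marco by 0.97) and 0 lower, while Vsig4, Adgre1, Csf1r and Cd68 did not pass. Their mean level was 8.95 to 9.09 in wild-type and 9.14 to 9.48 in PiZ liver. Of 6 neutrophil markers, S100a8 rose by 2.76 and S100a9 by 2.27, and the mean level was 4.47 to 4.83 in wild-type and 5.56 to 5.70 in PiZ liver. The neutrophil granule genes Ngp, Camp, Ltf and Elane read 3.44 to 5.18 in every array and did not pass. Endothelial (6 genes), lymphocyte (4), stellate cell (6), bile duct (5) and erythroid (3) markers gave 0 calls in either direction by limma, with 2, 0, 1, 1 and 0 genes at an unadjusted p below 0.05. Of the hepatocyte markers Fgb fell by 0.83 and the other 5 did not pass.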

How the data were processed

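Liver RNA of 3 PiZ and 3 wild-type mice was hybridised to 1 array each. The deposited log2 intensities were made by the authors with affy and RMA (background correction, quantile normalization and a summary per probe set), per the submitters' processing notes; the sources used here give no versions. Quantile normalization removes shifts shared by most genes.

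After 64 control probe sets were left out, 22626 probe sets were fitted with limma 3.58.1 (R 4.3.3; lmFit and eBayes, two-sided, Benjamini-Hochberg adjustment over all of them). In platform annotation 20380 probe sets name 1 gene, 691 several and 1555 none. A gene with several probe sets is represented by the one with the highest mean. Each adjusted p in the text is from this test, with n = 3 per group. The number of arrays limits the precision. On simulated data with 200 changed probe sets of 22626, the same test called 59% of those changed by 1 on the log2 scale. It called 92% of those changed by 2, with 8 false calls. The simulation had fewer changed probe sets than the 4331 called in the real data and gave both groups the same spread. Its shares therefore need not hold for the real data.

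Genes named outside the members are, per list, up to 3 called genes in each direction with the largest difference and no overlap of the groups, plus Srf, Egfr, Jund, Atf3, Btg2, Max, Mxd1 and Zfp36. The remaining marker genes were named after their values were seen. Members and lists were chosen with earlier results of these data known. RefSeq promoters (GRCm38.p6) of 7 of the 10 members were matched by symbol. Alternatives changed the probe set choice, the filter on dim probe sets (mean of at least 6), scaling, variance model, covariate, replicate block, threshold and arrays.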

Additional observations from a re-analysis of the deposited data

How the results depend on the processing

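Of 17 alternatives, Nr4a1 was called in 17 and Ier3 in 12, and Fosb in 9 of the 16 that included it. The member probe sets called higher (3) became 5 when centred on reference genes, 1 at adjusted p below 0.01, and 1 to 3 with 1 array left out. The member genes called higher (3) became 1 at adjusted p below 0.01 and 1 to 3 with 1 array left out. All probe sets called (4331) became 10986 with array weights, 2812 with the 3′ to 5′ covariate, 1133 at adjusted p below 0.01, and 1239 to 10547 with 1 array left out. Centring on reference genes moved the median difference of all probe sets from 0.08 to 0.21 and the share of calls that were higher from 46.6% to 56.1%; array weights and leaving out PiZ replicate 1 gave 55.0% and 54.4%. With the replicate number as a block, 5 member probe sets were called higher, both of Jun included (adjusted p = 0.0113 and 0.0236), and 5189 of all probe sets. Same-numbered arrays deviated together at correlations of 0.30, 0.30 and -0.04, so the numbers were not taken to pair the livers. Signs turned for Junb with PiZ replicate 1 alone (-0.0005), Ier2 after cyclic loess (0.0875), further quantile scaling (0.0775), centring on reference genes (0.10) and on leaving out 1 array (-0.2569 to 0.2471 in all), Myc with the covariate (0.18) and PiZ replicate 1 alone (0.45), Mxd1 after cyclic loess (-0.0253), with the covariate (-0.037) and PiZ replicate 1 alone (-0.0256), and Zfp36 with array weights (-0.25) and on leaving out 1 array (-0.2261 to 0.3886 in all). The cause of these turns was not tested.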
